A study of Mus musculus with 2 samples.

Results

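In MEL cells 36 mouse genes of the interferon system were followed: 12 genes that receive and pass on the signal (4 receptor chains, 2 JAK kinases, Stat2 and 5 interferon regulatory factors), 6 sensors of foreign nucleic acid, and 18 induced effectors. The genes were taken by name and role, with earlier results of these data known, and all 36 symbols were found among the 43346 annotated genes in the files. MEL is an immortalized mouse erythroleukemia line, that is, leukemic cells of the red cell lineage grown in culture. Polyadenylated RNA was sequenced single-end in 2 libraries, which the labels number as biological replicates 1 and 2 of 1 group. The labels name no treatment, genotype, time point or added interferon. Whether the replicates were separate cultures is not stated. There was no second condition to compare with, and both replicates came from the 1 line. All levels are those of cells as they were grown, and the spread given is that between 2 libraries.

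Interferons are secreted proteins that infected cells release as an alarm. Type I interferons bind the receptor chains Ifnar1 and Ifnar2, and interferon gamma binds Ifngr1 and Ifngr2. The receptors carry the kinases Jak1, Tyk2 and Jak2, which phosphorylate STAT proteins. Stat2 and Irf9 then act in a complex that binds the interferon-stimulated response element, a short DNA motif with paired GAAA letters found in the promoters of many induced genes. Those induced genes encode the effectors, which block viral entry, degrade viral RNA or stop translation. Sensors such as Ddx58 and Ifih1 bind viral RNA in the cytosol and lead, through Irf3 and Irf7, to production of interferon itself. Several genes of the receiving machinery are also induced by interferon, so the roles overlap.

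Levels are given as TPM (transcript abundance corrected for transcript length, on a common total for each library), as deposited by the authors. A gene was called detected at a TPM of at least 1 in both replicates. The libraries held 67735380 and 79923143 expected counts (reads assigned to genes by a model), of which the 36 genes took 0.0793% and 0.0911%. A gene without a read could still hold 4.43e-06% of replicate 1 or 3.75e-06% of replicate 2, a limit set at 3 counts that covers counting error only. All 7 erythroid marker genes were detected, at a median of 169.9 TPM, among them the erythroid transcription factors Gata1 and Klf1. None of 18 markers of macrophages, dendritic cells, T and NK cells, B cells, fibroblasts or endothelium was detected. Their summed level was 0.68 TPM in replicate 1 and 1.23 in replicate 2, and Cd3e, Ncr1 and Marco stood at 0 counts in both. In bulk RNA, a low level in every cell and a high level in a few cells cannot be told apart.

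Nearly all signal-receiving genes were detected, while the effectors were detected at about the share of all protein-coding genes. Of the 36 genes, 23 (63.9%) were detected, against 46.8% of the 21474 protein-coding genes. By role these were 11 of 12 receiving genes, 4 of 6 sensors and 8 of 18 effectors (44.4%). At a stricter limit of 10 TPM in both replicates, 12 of the 36 genes remained, of which 7 were receiving genes, 3 sensors and 2 effectors, against 31.4% of protein-coding genes. The median level was 15.5 TPM for receiving genes (17.3 in replicate 1 and 13.0 in replicate 2), 10.6 for sensors (12.8 and 8.36) and 0.625 for effectors (0.745 and 0.58). The median protein-coding gene stood at 0.49 TPM. On the log2(TPM + 1) scale, the median of the receiving genes exceeded that of the effectors by 3.40 in replicate 1 and 3.15 in replicate 2, which is 3.34 over the means of both replicates. No test was made of this difference, because genes are not replicates of a role. The size depends on how the values near 0 are treated, as it was 4.47 with a pseudocount of 0.1 in place of 1.

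**Figure D1:**
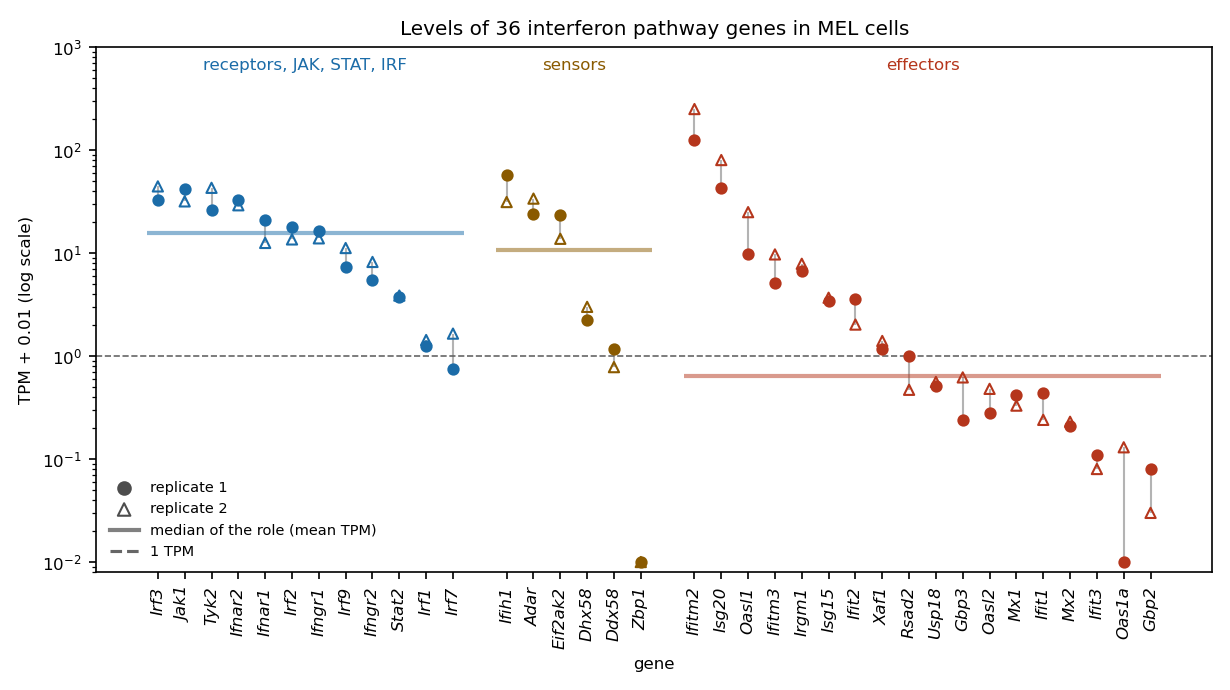
Level of each of the 36 genes, as TPM + 0.01 on a log scale, with genes ordered by mean level within the receiving genes, sensors and effectors. Filled circles are replicate 1, open triangles replicate 2, the thick line is the median of the role, and the dashed line marks 1 TPM. The effectors span from 187 TPM (Ifitm2) to 0.045 TPM (Gbp2), and only Zbp1 has no count in either replicate.

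All 4 receptor chains were detected. Ifnar2, the high-affinity chain of the type I receptor, had 33.1 TPM in replicate 1 against 29.1 in replicate 2, a mean of 31.1 ± 2.82 (SD, n = 2). Ifnar1, its partner chain, stood at 20.9 and 12.5 TPM. Ifnar2 was the higher of the pair in both libraries, by 1.91-fold on average (log2 difference of TPM + 0.1, the scale of all gene pairs here, 0.93 ± 0.39, SD, n = 2). For the interferon gamma receptor, Ifngr1, the ligand-binding chain, had 16.5 and 13.9 TPM. Ifngr2, the accessory chain that brings Jak2, had 5.46 and 8.18. Ifngr1 exceeded Ifngr2 in both replicates, with no overlap between the values of the chains.

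The receptor-bound kinases Jak1 and Tyk2 could not be ordered. Jak1 had 41.5 TPM in replicate 1 and 31.7 in replicate 2, and Tyk2, which pairs with Ifnar1, had 26.1 and 42.9. Their log2 ratio was 0.67 in replicate 1 and -0.44 in replicate 2, so the order turned between libraries. Stat2, the STAT specific to type I and III interferon signaling, was lower, at 3.73 and 3.85 TPM, and its mean of 3.79 ± 0.085 (SD, n = 2) was among the closest agreements between replicates.

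The 5 regulatory factors ranged from Irf3, the highest, to Irf7, the lowest by mean. Irf3, a latent factor activated by sensors, had 32.7 and 44.3 TPM. Irf7, the interferon-induced factor that amplifies interferon production, had 0.73 and 1.64 TPM and missed the detection limit in replicate 1. The Irf3 level was 31.8-fold that of Irf7 (log2 difference 4.99 ± 0.45, SD, n = 2). Irf2, which competes with Irf1 for the same DNA sites, had 17.98 and 13.5 TPM, while Irf1, an interferon-induced activator, had 1.23 and 1.42. Irf2 exceeded Irf1 11.0-fold. Irf9, the DNA-binding subunit of the complex with Stat2, lay between them at 7.24 and 11.2 TPM. The pairs compared here and below were chosen with levels already known, so their ratios are descriptions. Irf3 overlaps Bcl2l12, which was also detected, on the opposite strand over 1065 bases, and Irf7 overlaps Phrf1 over 45 bases. Irf9 shares 123 bases with Rnf31 on the same strand. The use of strand in counting is not given in the sources used here, and these values are uncertain to that extent.

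The sensors divided into genes above 10 TPM and genes near or below 3 TPM. Ifih1 (MDA5, a helicase that binds long double-stranded RNA; chr2:62595798-62646255, minus strand, mm10) had 57.0 TPM in replicate 1 and 31.2 in replicate 2, the highest level of any sensor. Ddx58 (RIG-I, which binds short RNA with a 5′ triphosphate) had 1.17 and 0.77 TPM, from 179 and 153 counts. Ifih1 exceeded its relative Ddx58 by 40.2-fold (log2 difference 5.33 ± 0.23, SD, n = 2). Dhx58 (LGP2, a related helicase without signaling domains) had 2.21 and 2.99 TPM. The levels of these 3 related helicases did not overlap. Ifih1 stood at the 88.1 and 80.9 percentile of protein-coding genes in the 2 libraries.

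Adar, the enzyme that converts adenosine to inosine in double-stranded RNA, had 24.1 and 33.7 TPM. Eif2ak2 (PKR), a kinase that halts translation on binding double-stranded RNA, had 23.4 and 13.7. Adar was the higher of these in both libraries, though the gap in replicate 1 was small. Zbp1, a sensor of Z-form nucleic acid that triggers cell death, had 0 counts in both libraries. The limit of 3 counts allows it up to 0.0328 TPM in replicate 1 and 0.0257 in replicate 2. The deposited upper credibility bounds for Zbp1 were higher, at 0.109 and 0.0859 TPM.

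A few effectors held nearly all of the effector signal. Ifitm2, a membrane protein that limits viral entry (chr7:140954837-140955987, minus strand), had 124.51 TPM in replicate 1 and 249.81 in replicate 2, the highest level of all 36 genes. Isg20, an exonuclease that degrades RNA (chr7:78913424-78920396, plus strand), had 43.1 and 79.9 TPM. Oasl1, a relative of the oligoadenylate synthetases that restrains Irf7 translation (chr5:114923240-114937915, plus strand), had 9.76 and 24.9. Together these 3 genes made up 88.5% and 92.8% of the summed TPM of the 18 effectors. All 3 were higher in replicate 2, and the sum over the 18 was 200.42 TPM in replicate 1 and 382.28 in replicate 2.

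The next effectors lay between 1 and 10 TPM. Ifitm3, the best known antiviral member of its family, had 5.13 and 9.68 TPM, and Irgm1, a GTPase that regulates clearance of intracellular pathogens, had 6.61 and 7.85. Isg15, the ubiquitin-like modifier that is one of the most strongly induced genes in many cell types, had 3.38 and 3.67 TPM from 111 and 154 counts. Ifit2, which binds RNA and restricts its translation, had 3.59 and 2.01, and Xaf1, a pro-apoptotic protein, had 1.16 and 1.39. These 5 genes were low in both libraries, with levels under 10 TPM throughout.

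The remaining 10 effectors stayed below 1 TPM in both replicates. Rsad2 (viperin, which makes a chain-terminating nucleotide) had 0.99 and 0.46 TPM, and Usp18, which removes Isg15 from proteins and dampens receptor signaling, had 0.5 and 0.55. The GTPase Gbp3 had 0.23 and 0.61 TPM, and Oasl2, an oligoadenylate synthetase, had 0.27 and 0.47. The dynamin-like GTPases Mx1 and Mx2 had 0.41 and 0.32 TPM and 0.2 and 0.22. Ifit1, which binds capped viral RNA, had 0.43 and 0.23. Ifit3, its binding partner, had 0.1 and 0.07 TPM from 8 and 7 counts. Gbp2 had 0.07 and 0.02 TPM from 8 and 3 counts. Oas1a, an oligoadenylate synthetase, had 0 counts in replicate 1 and 13.45 expected counts in replicate 2 (0.12 TPM). Thus all 10 had some counts in at least 1 library.

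Close relatives stood far apart in level. Ifitm2 exceeded Ifitm3 by 24.7-fold, with a log2 difference of 4.62 ± 0.071 (SD, n = 2). Oasl1 exceeded its neighbor Oasl2 by 34.2-fold (log2 difference 5.10 ± 0.51). Ifit2 exceeded Ifit1 by 6.67-fold (2.74 ± 0.087). Against Ifit3 no fold is given, since its TPM is about that of the added 0.1. That addition makes each fold over a gene below 1 TPM smaller than the plain ratio. Isg20 exceeded Isg15, an unrelated protein that shares the name stem, by 16.2-fold. Each of these ratios had the same sign in both replicates. Mx1 exceeded Mx2 by only 1.49-fold, at levels from 18.39 to 55.02 counts. When all 36 genes were ordered by mean level, the values of neighbors in the order overlapped between replicates in 26 of 35 cases, so the order is firm only across larger steps such as that from Ifitm2 to Isg20.

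Reads divided among near-identical copies were looked for in the deposited posterior SD of each gene's count. It was at most 1.09 times the counting error (Oas1a in replicate 1), and no gene passed the limit of 3 set for this. The limit was not tried on genes with known near-identical copies, so a lower value does not show that reads were undivided. On the opposite strand 12 of the 36 genes overlapped an annotated gene, and in 4 cases the partner was detected. Besides Irf3 and Irf7 these were Tyk2, with the antisense RNA 1700084C06Rik at 1.1 and 1.16 TPM, and Adar, with Chrnb2 at 1.57 and 1.99. On the same strand, Ifitm2 shares 1101 bases with Gm45717, a gene of the annotation used for names that has no values in these data. Reads of Gm45717 could therefore not be told apart from those of Ifitm2, and the check on divided reads does not cover this case.

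The response element core was found near the start of many effectors and of few receiving genes. The core searched was GAAANNGAAA, on both strands, in windows from 250 bases before to 50 bases after each RefSeq start (GRCm38.p6). Of 27025 genes with a window, 3.99% held it, and of all 32851 windows 3.44%. Of the 36 genes, 31 had a window and 15 held the core: 10 of 15 effectors, 3 of 4 sensors and 2 of 12 receiving genes (Stat2 and Irf2). In Ifitm3 and the 3 sensors the matches began after the start, at 2 and 19 for Ifitm3, 2 for Ddx58, 32 for Ifih1 and 18 for Eif2ak2. Genes with several starts had several windows, and 15 of the 39 windows of these genes held a match. The Tyk2 window lies 3929 bases from the nearest start listed in the files. A match is a description of the letters and was not tested for binding here. Stretches upstream of the RefSeq start are printed to show how the core sits in effectors of very different level. They are on the strand of the gene, 5′ to 3′, with the core or its reverse complement in capitals, overlapping matches merged.
Isg15, chr4:156200850-156200921, minus strand: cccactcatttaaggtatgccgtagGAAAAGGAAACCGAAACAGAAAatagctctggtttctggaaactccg
Ifit1, chr19:34640760-34640838, plus strand: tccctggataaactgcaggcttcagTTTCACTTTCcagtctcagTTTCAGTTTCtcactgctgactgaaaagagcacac
Oas1a, chr5:120907526-120907570, minus strand: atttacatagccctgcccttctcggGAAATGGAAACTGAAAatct
Gbp2, chr3:142620579-142620638, plus strand: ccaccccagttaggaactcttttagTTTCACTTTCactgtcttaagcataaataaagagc
Irgm1, chr11:48871421-48871475, minus strand: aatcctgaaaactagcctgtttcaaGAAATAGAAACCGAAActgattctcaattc
Ifitm2, chr7:140955973-140956032, minus strand: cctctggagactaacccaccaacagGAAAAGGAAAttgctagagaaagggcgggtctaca

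The stretches show the core singly in Ifitm2 and Gbp2, as separate copies in Ifit1, and as an overlapping run in Isg15, Oas1a and Irgm1. In Isg15 the matches began 78, 72 and 66 bases before the start, which the positions -78, -72 and -66 denote. Ifitm2, at 187 TPM, and Gbp2, at 0.045 TPM, thus both carried 1 core close to the RefSeq start, at -46 and -59. For Gbp2 that start is chr3:142620663, while Gbp2-201, which held 100% of the gene's TPM, starts at 142620602. The Gbp2 core therefore lies just after the start of Gbp2-201. The other effectors with the core were Ifit3, Ifitm3, Rsad2 and Gbp3. Effectors with the core had a median of 0.573 TPM, from 0.045 to 187, and 4 of 10 were detected. Effectors with a window and no core had a median of 2.80 TPM, from 0.37 to 61.5, and 4 of 5 were detected. The latter included Isg20 and Oasl1. The effectors Mx1, Mx2 and Usp18, all below detection, had no window and fell in neither set. Over all protein-coding genes 46.8% were detected. The 60 bases before the start of Oasl1 and before the start of the leading Isg20 transcript are printed for contrast.
Oasl1, chr5:114923180-114923239, plus strand: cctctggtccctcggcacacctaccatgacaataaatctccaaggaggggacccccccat
Isg20, chr7:78914175-78914234, plus strand: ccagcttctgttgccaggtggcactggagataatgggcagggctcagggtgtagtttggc

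The absence of these letters says only that they are not in the windows searched. With the core required to be followed by C (GAAANNGAAAC), 12 of the 31 genes with a window held it, against 0.944% of the genes with a window. The gamma-activated site TTCNNNGAA, a motif bound by STAT proteins, was found in 10 of the 31 genes and in 9.55% of the genes with a window.

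Levels along the gene clusters showed which members of each family the cells carried. Ifnar2, Il10rb, Ifnar1 and Ifngr2 lie within 193 kb on chromosome 16 (chr16:91372783-91565623), and all 4 were detected, with Il10rb, a receptor chain for interferon lambda and interleukin 10 family cytokines, at 11.3 and 11.0 TPM. In the Ifit cluster (chr19:34550694-34650009) Ifit2 was the 1 detected gene of 6, and Ifit1bl1, Ifit3b and Ifit1bl2 stood at 0.06 TPM or below. In the Ifitm cluster (chr7:140948958-141017924) Ifitm2 and Ifitm3 were detected, Ifitm5 had 0.33 and 0.77 TPM, and Ifitm1 and Ifitm6 had 0 counts in replicate 1 and at most 2.04 in replicate 2. The genes on either side of Ifitm2, the highest of all members, were thus close to 0 or below detection.

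In the Oas1 cluster (chr5:120800194-120921652) the member Oas1a was below detection, and of 7 genes only Oas1c passed, at 1.21 and 1.33 TPM. Oas1b, the gene linked to flavivirus resistance in mice, had 0.57 and 1.14 TPM. Oas1f, Oas1h and Oas1d had no count in either library, and Oas1g had 6 counts in replicate 1 alone. In the Gbp cluster on chromosome 3 (chr3:142530342-142638008), Gbp7 was detected at 2.33 and 1.47 TPM, above the members Gbp3 and Gbp2, and Gbp2b had 0.03 and 0.01. Oasl1 alone passed of the Oasl pair, neither Mx gene passed, and Irgm1 had no relative of its name stem within 100 kb.

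**Figure D2:**
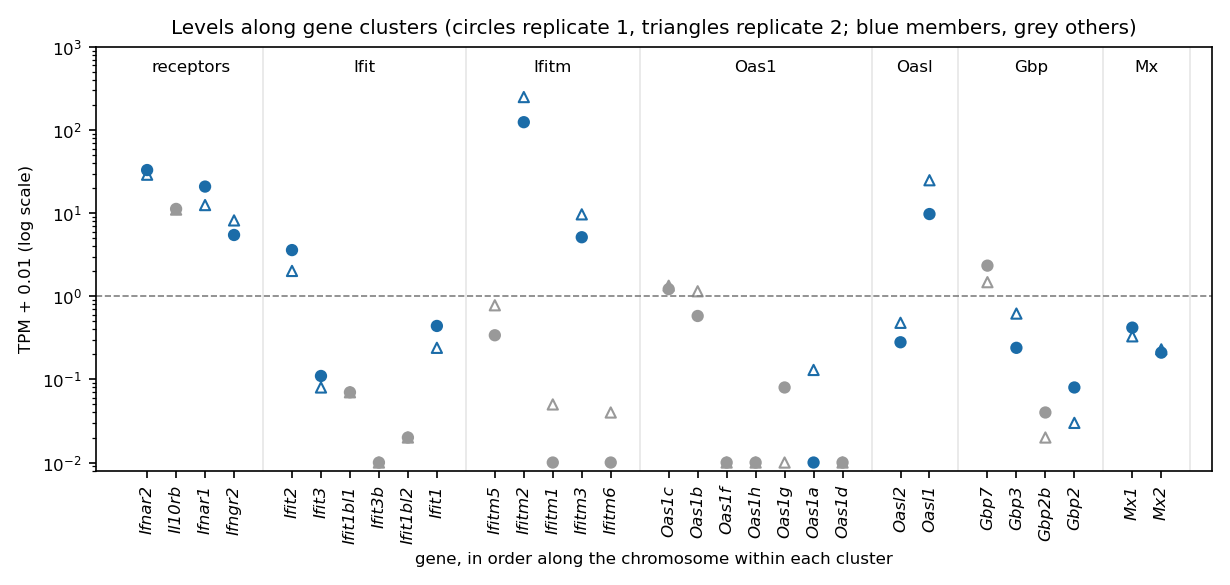
TPM + 0.01 on a log scale for the genes of 7 clusters, in order along the chromosome. Blue symbols are the members and grey symbols their neighbors of the same family, circles are replicate 1 and triangles replicate 2, and the dashed line marks 1 TPM. All 4 receptor genes lie above the line, while the Ifit, Oas1, Oasl and Gbp clusters have 1 gene each above it in both replicates.

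Beyond the members, 116 other genes of the pathway were examined in 6 lists, of which 58 were detected. That share was close to the 46.8% of all protein-coding genes, which is also the background for the count of each list. No interferon gene was detected: of 21 ligand genes, 18 had no count in either library. Ifnb1, the interferon made first by many infected cells, had 1 count in replicate 1 and none in replicate 2. Ifnk had 1 count in replicate 2. Ifnz had 7.26 expected counts in replicate 2 (0.09 TPM) and none in replicate 1. At this depth the limit of 3 counts allows Ifng up to 0.0560 TPM in replicate 1 and 0.0438 in replicate 2.

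Of 9 other receptor, JAK, STAT and IRF genes 5 (55.6%) were detected. Stat3, which answers mainly to cytokines of the interleukin 6 family, had 37.3 and 48.1 TPM. Jak2, the kinase of the erythropoietin receptor and of Ifngr2, had 49.6 and 22.9. With Il10rb, described above, these were the genes of the list at 10 TPM or more in both libraries.

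Of 9 inhibitors of the pathway 7 (77.8%) were detected, and the list had a median of 24.2 TPM. The phosphatase Ptpn6 (SHP-1), which is abundant in blood cells, had 94.6 and 137.53 TPM. The phosphatase Ptpn2, which acts on Jak1, had 85.9 and 36.7 TPM. Ptpn1 had 43.5 and 48.9 TPM, and Ptpn11 had 45.0 and 41.4. Cish, a feedback inhibitor, had 11.1 and 18.7 TPM. Pias1 and Pias4, which bind STAT proteins, had 18.6 and 14.9 TPM and 18.2 and 30.2. The 2 inhibitors that were not detected were Socs1 and Socs3, both known as induced feedback inhibitors, at 0.24 and 0.55 TPM and 0.81 and 1.42. They fell outside the naming rule and were added after their values were seen. The 4 phosphatases were thus each above 36 TPM in both libraries, and Cish, Pias1 and Pias4 were between 11 and 31 TPM.

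Of 17 genes of sensing adaptors, kinases and other sensors, 12 (70.6%) were detected, with a median of 14.8 TPM. Mavs, the mitochondrial adaptor of Ifih1 and Ddx58, had 12.3 and 24.4 TPM, and Tbk1, the kinase that activates Irf3, had 21.1 and 16.0. Traf3, an adaptor between them, had 21.4 and 30.9, and Myd88, the Toll-like receptor adaptor, had 22.2 and 30.1. Mavs, Tbk1, Traf3 and Myd88 were named because they passed 10 TPM in both libraries, so their passing it is not a result. Ikbke, another kinase of the list, had 4.71 and 5.41 TPM and was added after its values were seen. The ubiquitin ligase Trim25 had 26.3 and 32.9 TPM. The helicases Dhx9, Ddx41 and Dhx36, which also serve general RNA metabolism, had 241.69 and 128.53, 42.1 and 59.9, and 33.6 and 13.4 TPM. Tmem173 (STING, the adaptor of cytosolic DNA sensing), picked after its values were seen, had 0.36 and 0.65 TPM.

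All 6 nucleases that limit self nucleic acid were detected, with a median of 64.9 TPM. The RNase H2 subunits Rnaseh2a, Rnaseh2b and Rnaseh2c had 51.6 and 82.2, 84.3 and 64.5, and 38.4 and 121.89 TPM. Dnase2a, the lysosomal DNase, had 62.4 and 63.4 TPM, and Samhd1, which depletes nucleotides, had 74.2 and 37.5. No member of this list was below 5 TPM in either library.

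Of 54 other interferon-induced genes, 28 (51.9%) were detected, close to the 46.8% of all protein-coding genes, and their median was 1.36 TPM. Ifi27 had 65.6 and 79.9 TPM, and Bst2 (tetherin, which holds virions at the cell surface) had 36.1 and 70.9. Daxx and Pml, components of nuclear bodies, had 30.0 and 50.5 TPM and 25.9 and 42.5. Uba7 and Ube2l6, the activating and conjugating enzymes for Isg15, had 24.4 and 33.6 TPM and 23.6 and 27.7, above the levels of Isg15 itself. Ifi47, a GTPase, had 22.1 and 19.1 TPM, and Ifi35 had 13.9 and 26.9. The levels in this list ran from 9 genes without a count to the 72.8 TPM of Ifi27.

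**Figure D3:**
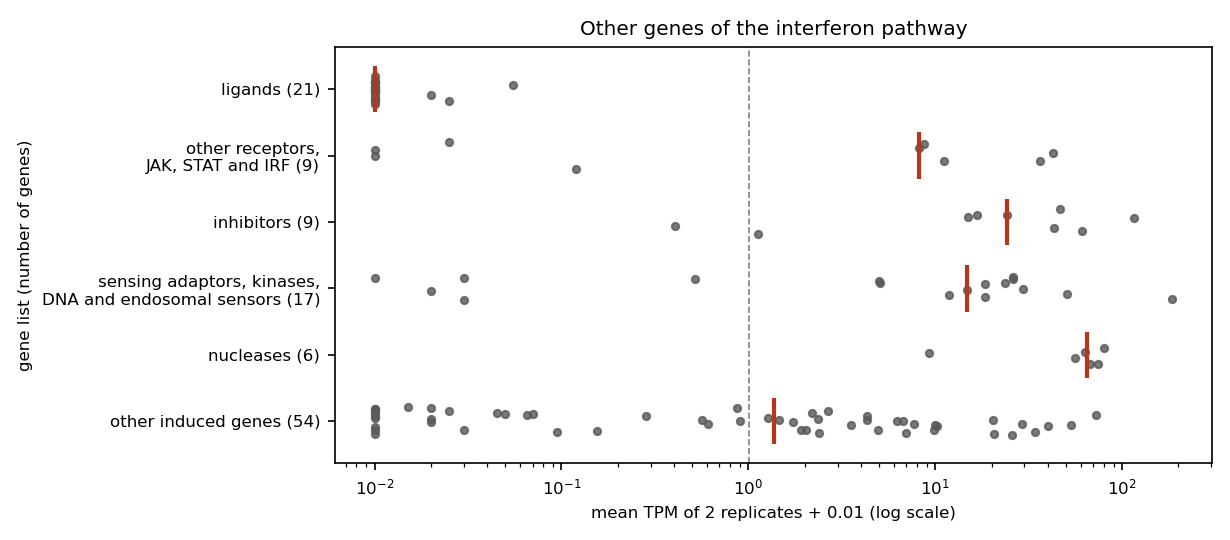
Mean TPM of 2 replicates + 0.01, on a log scale, for the genes of 6 lists of the interferon pathway other than the 36 members. Each point is a gene (scattered vertically for visibility), the red bar is the median of the list, the number of genes is in brackets, and the dashed line marks 1 TPM. The ligands lie at or near 0, and the nucleases have the highest median, 64.9 TPM.

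Transcript levels added detail for 13 of the 36 genes, those at 5 TPM or more in each replicate that have several listed transcripts. The leading transcript was the same in both libraries for 11 of them, and Irf9 and Ifih1 were the exceptions. In 12 genes whose transcripts could be matched by name, a median of 85.7% of TPM fell on transcripts annotated as protein coding (91.1% in replicate 1 and 85.9% in replicate 2). For Irf3, 82.4% and 69.1% of TPM fell on transcripts that had no match in the annotation used for names, so its transcripts are not described.

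The type I receptor chain Ifnar2 was carried mostly by a short form. Ifnar2-203, with 744 coding bases, held 77.5% of the gene's TPM in replicate 1 and 54.9% in replicate 2. Ifnar2-201, with 1539 coding bases, held 17.9% and 17.1%. Of the coding bases of Ifnar2-203, 709 are shared with Ifnar2-201 and 35 are its own. Mouse Ifnar2 is known to give soluble as well as membrane-spanning proteins, but which protein Ifnar2-203 makes was not determined here. Another form, Ifnar2-204, moved from 1.36% to 23.1% between the libraries. By expected counts, which weight long transcripts more, Ifnar2-203 held 59.2% and 41.9%, and Ifnar2-201 held 39.0% and 37.2%.

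For Ifnar1, the full-length Ifnar1-201 held 48.7% and 63.7% of TPM. Ifnar1-203, annotated as a target of nonsense-mediated decay and 3372 bases long, held 4.92% and 29.4%, from 157.85 and 721.03 expected counts. A short form of 415 bases, Ifnar1-204, took 8.51 TPM in replicate 1 from 145.45 counts and 0 in replicate 2. The drop of the gene's TPM from 20.9 to 12.5 sits largely on that form, since Ifnar1-201 had 10.2 and 7.97 TPM and the gene's scaled counts differed by only 1.09-fold between libraries. For Ifngr2, Ifngr2-202, annotated as a target of nonsense-mediated decay and 534 bases long, held 10.3% of TPM in replicate 1 and 34.2% in replicate 2, with 12.6 and 80.73 expected counts. Thus a short transcript with few reads held a large share of the TPM of each of these genes in 1 library.

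Among the sensors, Ifih1 changed its leading form. Ifih1-202, with 2928 coding bases, held 52.2% of TPM in replicate 1 and 16.1% in replicate 2, while Ifih1-201, with 3075 coding bases, held 28.2% and 54.9%. In TPM, Ifih1-201 was nearly level at 16.1 and 17.1, and Ifih1-202 had 29.7 and 5.03, so the difference in the gene's total sat on Ifih1-202. All coding bases of Ifih1-202 are also in Ifih1-201.

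Adar is known to have a constitutive start and an interferon-inducible start that allows a longer protein. Transcripts from the upstream start held 61.2% of TPM in replicate 1 and 55.6% in replicate 2, nearly all on Adar-202, which has 2790 coding bases. Transcripts from the downstream starts with a coding sequence held 25.1% and 30.0%. Adar-203, the form with the longest coding sequence (3534 bases), held 4.65% and 11.2% of TPM, at 1.12 and 3.78 TPM. Adar-205, another form from the downstream starts with 1902 coding bases, held 20.5% and 18.8%, most of the downstream share. Adar-202 therefore led in both libraries, and by TPM the form with the longest coding sequence was the lowest of these 3. By expected counts Adar-203 held 6.16% and 14.8%, and Adar-205 held 10.6% and 9.71%. The order of Adar-203 and Adar-205 by counts thus turned between libraries. Eif2ak2 lay mainly on Eif2ak2-201, with 89.8% and 79.5%.

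Of the abundant effectors, Isg20 was led by Isg20-203, with 72.2% and 67.6% of TPM, and the same 543 coding bases as Isg20-201. Oasl1-202 held 70.6% and 48.2% of the TPM of Oasl1. The noncoding Oasl1-205 took 16.9% and 30.6%, and the retained-intron Oasl1-204 took 9.32% and 5.78%. Transcripts annotated as coding held 70.6% and 62.8% of the TPM of Oasl1. Ifitm2 has a single listed transcript, Ifitm2-201. Jak1, Ifngr1 and Irgm1 each had a leading transcript above 80% in both libraries.

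**Figure D4:**
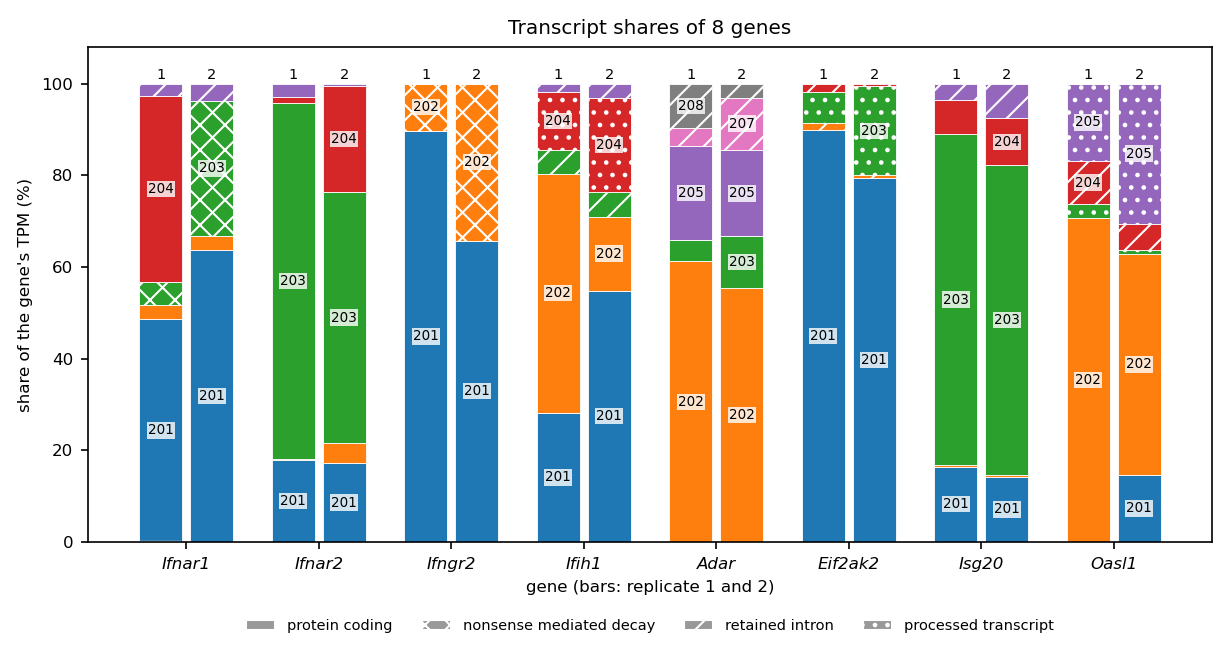
Share of each gene's TPM on each of its named transcripts, in percent, for 8 genes, with replicate 1 as the left bar and replicate 2 as the right. Labels give the transcript number for shares of at least 9%, and hatching marks the annotated type. Ifnar2-203 leads in both bars of Ifnar2, and the leading form of Ifih1 differs between its bars.

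Differences between the replicates were compared on expected counts scaled for library size by TMM (trimmed mean of M values), for genes whose counts summed to 20 or more. With 1 library on each side no test was possible, and the 95% intervals given cover counting error only. Of the 36 genes, 32 passed the count minimum, and Zbp1, Ifit3, Oas1a and Gbp2 did not. A difference of at least 2-fold was found for 3 of the 32, against 20.4% of the 15251 genes tested. Among the protein-coding genes tested it was found for 1901 of 11838. Higher in replicate 2 were 2 of the 32 (8.01% of all genes), and higher in replicate 1 was 1 (12.4% of all genes). With library totals in place of TMM the count was 6, with Ifitm2, Isg20 and Ifitm3 added.

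Irf7 was 2.53-fold higher in replicate 2, with 48 and 157 counts (log2 difference 1.34, interval 0.88 to 1.85). Oasl1 was 2.35-fold higher in replicate 2, with 769 and 2316 counts (log2 difference 1.23, interval 1.11 to 1.35). Rsad2 was 2.46-fold higher in replicate 1, with 171 and 89 counts (log2 difference -1.30, interval -1.69 to -0.92). Just below the limit were Ifitm2 (log2 difference 0.998) and Ifit2 (log2 difference -0.997), and Irf7, Oasl1 and Rsad2 were the genes just past it. Of the 15 effectors tested, 11 were higher in replicate 2 and 4 were lower, beside 7741 higher and 7510 lower of the 15251 genes tested.

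The differences between the libraries moved with base composition. Over all genes tested with a known GC content, the median log2 difference ran from -0.91 in the fifth of genes with the lowest GC content to 0.76 in the fifth with the highest. Across the 32 members, the log2 difference and the GC content of the most abundant transcript had a Pearson r of 0.84 and a Spearman rho of 0.82, given as a description, since all points come from the same 2 libraries. Over the 15161 genes tested with a known GC content these were 0.56 and 0.75. The leading Irf3 transcript had no match, so the GC content used for Irf3 is that of Irf3-202, with 12.4% and 16.7% of TPM. Ifih1 (44.3% GC) and Eif2ak2 (43.9%) were lower in replicate 2, with log2 differences of -0.78 and -0.93. Tyk2 (57.0%) and Isg20 (56.2%) were higher, with 0.71 and 0.88. After the trend with GC content over all genes was subtracted, 0 of the 32 members and 8.65% of all genes differed by at least 2-fold. Among the protein-coding genes tested with a known GC content, 396 of 11837 did, a smaller share than over all genes. The largest remaining differences among the members were 0.75 for Irgm1 and 0.72 for Irf7 and Ifitm3. The median remaining difference was 0.51 for the 15 effectors tested, of which 11 were above 0. It was -0.02 for the 12 receiving genes, -0.12 for the 5 sensors and 0.0041 over all genes. The share of all genes above 0 after this step was not counted, so the 11 effectors have no background share.

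**Figure D5:**
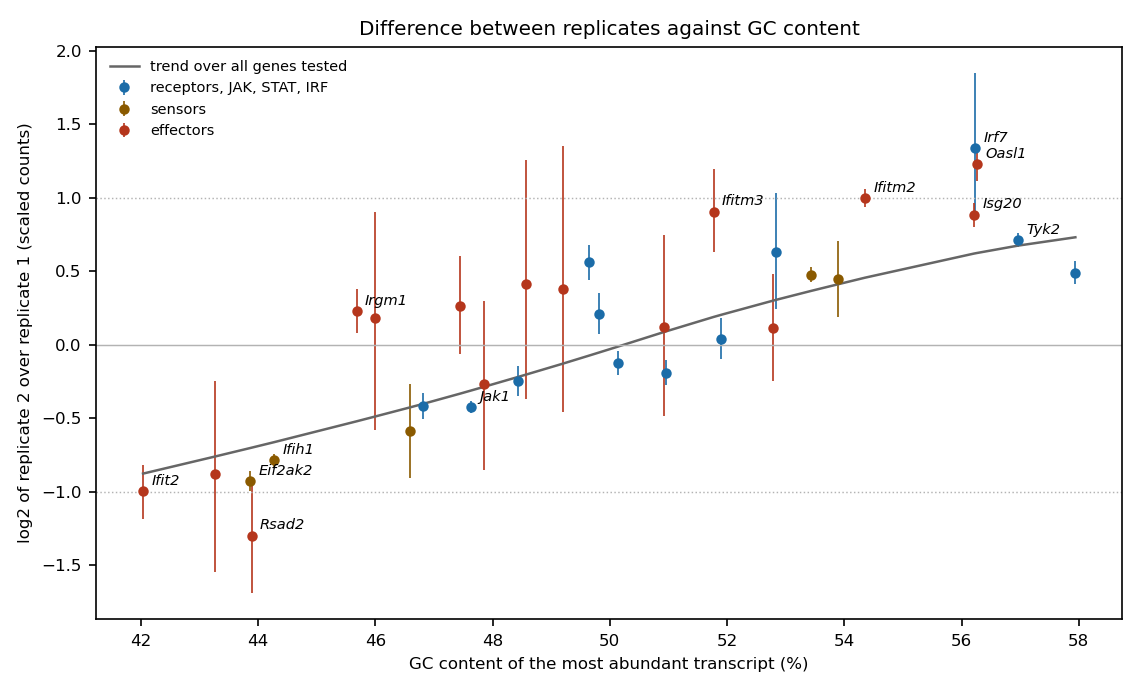
The log2 of replicate 2 over replicate 1 in scaled counts against GC content in percent, for the 32 members whose counts summed to 20 or more. Bars are 95% intervals of counting error, the grey line is the trend over all genes tested, and dotted lines mark a difference of 2-fold. Ifit2 and Rsad2, with low GC content, lie below 0, and Irf7, Oasl1 and Isg20, with high GC content, lie above it. Not all members follow: Irgm1 (45.7% GC), Gbp3 (46.0%) and Xaf1 (47.4%) lie above 0.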

How the data were processed

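The authors aligned the reads to mm10 and quantified genes and transcripts of GENCODE M4, per the file headers and the text deposited with each sample. Which aligner and quantifier were run, and whether strand was used in counting, is not given in the sources used here. Deposited expected counts are model-based estimates of reads per gene, deposited TPM and FPKM are scaled by effective length, deposited percent columns give a transcript's share of its gene, and deposited score columns give posterior SDs and credibility bounds. Names and types were taken from GENCODE M21, which is on that build too. The 97 spike-ins and 26248 short features (2.93% and 6.24% of TPM) were left out, with TPM not rescaled.

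The 36 members, the lists and the pairs were chosen with earlier results of these data known. All members were named, with pathway genes of at least 10 TPM in both replicates (up to the 8 highest of a list), ligands with a count, and genes of the same clusters. Of 120 pathway genes 116 matched, and Mb21d1, Gbp5, Gbp6 and Gbp10 were not used here. Expected counts were rounded and scaled by TMM in edgeR 4.0.16, with a prior count of 0.5 and exact Clopper-Pearson intervals. DESeq2 1.42.0 size factors were an alternative. Pairs used log2 of TPM plus 0.1. Level folds, GC trends (lowess) and counts were computed in Python. The 2-fold call was tried on simulated counts in which 200 genes were changed 4-fold. It found 200 of them and also called 112 of 15062 unchanged genes. The simulated counts held counting error only, with no GC trend and no other variation between libraries. The trial therefore does not show how the call performs on these 2 libraries. In all 19 windows with a listed transcript start, the 25 bases after it were equal to the transcript. Values of some single listed genes were left out of the text.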

Additional observations from a re-analysis of the deposited data

How the results depend on the processing

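Alternatives that leave out a replicate gave medians of 13.0 to 17.3 TPM for receiving genes, 8.36 to 12.8 for sensors and 0.58 to 0.745 for effectors. They gave a log2 difference of receiving genes over effectors of 3.15 to 3.40, and a coding share of 85.9% to 91.1%. Detection at a TPM of at least 5 left 5 effectors. In FPKM, a deposited unit on another scale, the medians were 10.9, 7.43 and 0.443 and the log2 difference 3.05. Members with a summed count of at least 20 alone gave medians of 18.6 for sensors and 1.28 for effectors and a log2 difference of 2.85, since genes near 0 were left out. The difference was 4.47 with a pseudocount of 0.1 and 2.96 with sensors counted as effectors. The coding share was 96.4% by expected counts. Members differing between replicates numbered 3, 6 with library totals as scaling (Ifitm2, Isg20 and Ifitm3 were added, as totals moved all log2 differences up by 0.121), 5 with no count minimum and 0 after the GC trend was removed, an alternative chosen after seeing the data. Among members under 2-fold, removing the GC trend turned the log2 difference of Irf3 from 0.49 to -0.24, of Isg15 from 0.11 to -0.19, of Stat2 from 0.04 to -0.16 and of Mx1 from -0.27 to 0.02, and library totals turned Ifnar1 from -0.12 to 9.4e-05. For Irf3 the trend was read at the GC content of a transcript that was not its leading form. The 3 members past 2-fold kept their sign. With 2 libraries, the SD of a level is itself uncertain, and genes under 1 TPM rest on few counts.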
